A study of Mus musculus with 4 samples.

Results

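Cytosolic ribosomal protein genes encode the protein part of the ribosome, the particle that translates mRNA. Large (60S) subunit proteins carry Rpl symbols, small (40S) subunit proteins carry Rps symbols, and Rplp0, Rplp1 and Rplp2 form the stalk that recruits translation factors. Their mRNAs are abundant in most cells and many start with a run of pyrimidines, through which mTOR signalling controls their translation. The genes were taken by symbol (Rpl or Rps with a number and an optional suffix, plus Rplp0, Rplp1, Rplp2 and Rpsa), without entries ending in -ps. This gave 89 of 53465 listed genes. A GENCODE annotation of the mouse genome GRCm38 (mm10) described 83 of them as protein-coding and 6 as processed pseudogenes (Rps4l, Rps12l1, Rpl32l, Rpl6l, Rps3a2 and Rps3a3). Of the coding genes, 6 were paralogs with an l in the symbol (Rpl3l, Rpl7l1, Rpl10l, Rpl22l1, Rpl39l and Rps27l), which left 77 core genes, 46 for the 60S and 31 for the 40S subunit.

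RNA-Seq was performed on 4 libraries from primary mouse oligodendroglial cell cultures (1° mouse OGCs) after 3 days of differentiation, 2 of each genotype. Both genotypes carried the floxed Zfp276 fl/fl allele. The Zfp276cko libraries carried Sox10::Cre in addition and the ctrl libraries did not. Per the paper, mice bred for primary oligodendroglial culture also received a tdTomato reporter allele with a floxed stop, by which Zfp276cko newborns were identified. The part of Cre or of the reporter in the values was not tested. Sox10::Cre is a transgene active in the oligodendroglial lineage from the progenitor stage, each preparation pooled several mice, and the cultures were depleted of microglia by the culture protocol. The comparison asked which genes depend on Zfp276, a zinc finger transcription factor, in these cells. Counted reads ranged from 21068322 to 26599809 per library. Zfp276 itself had normalised counts of 1648 and 2230 in ctrl and of 489.5 and 502.6 in Zfp276cko, 25.6% of ctrl. As the samples are bulk cultures, fewer cells of a type and less RNA per cell cannot be told apart.

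The library of ctrl replicate 1 stood apart. Its summed fibroblast and vessel markers (10 genes, Cldn5 listed at 0 in at least 1 library) reached 358 CPM (counts per 1e+06 counted reads), against 19.4 to 23.97 in the other 3 libraries. Col1a1 had 2522 normalised counts in it and 49.0 to 74.2 in the others. For 10 of 12 oligodendrocyte markers (83.3%), neither Zfp276cko library reached the level of the lower ctrl library, against 23.7% of all genes tested. The CPM values of the list summed to 14278 and 19789 in ctrl against 10801 and 11001 in Zfp276cko. The sums of 14 microglia markers were 2480 and 1438 in ctrl against 2217 and 2288 in Zfp276cko. Those of 9 astrocyte markers were 1812 and 1901 in ctrl against 1808 and 1725 in Zfp276cko. Those of 9 neuron markers were 711 and 1227 in ctrl against 931 and 1024 in Zfp276cko. The log2 ratio of ctrl replicate 1 to ctrl replicate 2 had a median of −1.52 over the neuron markers. It was −0.964 over the astrocyte markers and 0.715 over the microglia markers. No gene of these lists was at 0 in any library. The part of culture composition in the values below was not tested.

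Several core mRNAs start with the pyrimidine run. It is shown for 3 genes whose counts are given below, as 30 bases of the RefSeq promoter sequences (GRCm38.p6), 5′ to 3′ on the strand of the gene, with the run in capitals. The windows are chr4:86857349-86857378 (minus strand), chr3:90213631-90213660 (minus strand) and chr7:141447637-141447666 (plus strand).
Rps6: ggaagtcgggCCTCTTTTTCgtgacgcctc
Rps27: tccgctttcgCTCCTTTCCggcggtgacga
Rplp2: gcgtcagcgtCTTCCTTTCgccgccggacg
A promoter entry was found for 64 of the 89 genes. A C followed by at least 7 C or T, on the strand of the gene and between 20 bases before and 50 after the start, was present in 45 of 57 core genes (78.9%) and in 23.0% of 16498 protein-coding genes. CCGGAAG, the letters of an ETS factor motif, occurred on either strand within 250 bases before to 50 after the start in 42.1% of the core genes and 13.4% of protein-coding genes. AAGATGGC, the letters of a YY1 motif, occurred there in 8.8% and 3.6%. TATAAA within 40 bases before the start was in 0 of 57 core genes and in 4.0% of protein-coding genes.

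Reads in the ribosomal protein genes made up 2.88% of all counted reads in ctrl replicate 1, 2.26% in ctrl replicate 2, 2.19% in Zfp276cko replicate 1 and 2.06% in Zfp276cko replicate 2. The 95% binomial confidence intervals (Wilson) of these shares, which cover counting error only, were 2.8689% to 2.8831%, 2.2532% to 2.2659%, 2.1833% to 2.1947% and 2.0508% to 2.0616%. Both Zfp276cko libraries were below both ctrl libraries, but the ctrl libraries lay further apart than ctrl replicate 2 did from either Zfp276cko library. The share was 2.57% ± 0.436 (SD, n = 2) in ctrl and 2.12% ± 0.0940 in Zfp276cko. The difference of −0.445 percentage points had an exact permutation p of 0.333 (two-sided), the smallest that 2 against 2 libraries allow, and it was −0.137 without ctrl replicate 1. The 60S genes took 56.0%, 56.7%, 57.6% and 57.2% of the core reads in the same order of libraries.

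**Figure D1:**
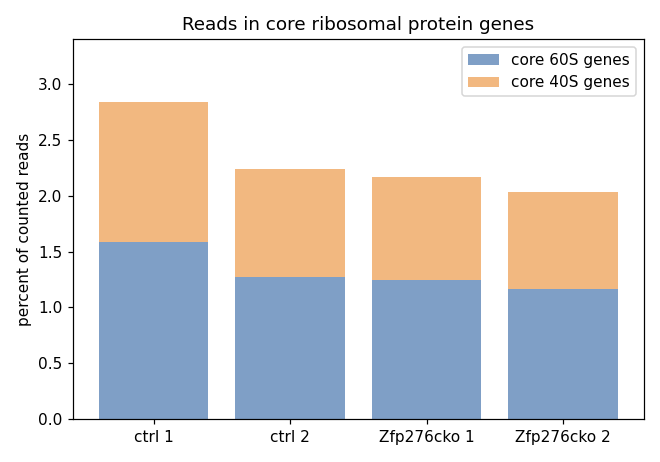
Percent of counted reads (vertical axis) in core 60S and 40S ribosomal protein genes in each of the 4 libraries, stacked, 1 bar a library. The ctrl 1 bar is the tallest at 2.84%, and the other 3 lie between 2.03% and 2.24%.

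Within the genes, 83 passed the filter on low counts and were tested with edgeR's quasi-likelihood test among 15766 genes. No ribosomal protein gene was called (adjusted p at most 0.05, a log2 fold change of 0.6 or more in size, a mean normalised count of 20 or more), and the background was 0% of all genes in either direction. Zfp276 itself was not called either (−1.97, SE 0.18, edgeR adjusted p = 0.0962). The smallest adjusted p among the ribosomal protein genes was 0.123. At an unadjusted p of at most 0.05, 7 were lower in Zfp276cko (8.43%, against a background of 7.3% of all genes) and 1 was higher (1.20%, against 8.33%), so the share of lower genes was near the background. The 6 genes not tested were Rpl24, Rps12l1, Rps3a2, Rps3a3, Rpl10l and Rpl3l, and Rps3a2 had 4 to 11 counts in any library. DESeq2, which set its own filter, called 2 genes lower (Rps2 and Rps3a3, the latter high in ctrl replicate 1 alone) and 1 higher (Rps4l), where 2.27% and 3.02% of all genes were called.

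The direction was shared more widely than the calls. The log2 fold change was below 0 in 79 of the 83 tested genes, with a median of −0.33 for the 83 and −0.001 for all genes tested. Both Zfp276cko libraries were below both ctrl libraries in 54 genes (65.1%, against a background of 23.7%), and above both in 2 (2.41%, against 26.8%). The median was −0.31 for 45 tested core 60S genes and −0.41 for 31 core 40S genes. The size of the median rests largely on ctrl replicate 1, which was the highest of the 4 libraries in 72 of the 83 genes, against 30.7% of all genes tested. Leaving out ctrl replicate 1 gave a median of −0.13 and leaving out ctrl replicate 2 one of −0.54, with values below 0 in 67 and 74 of 76 tested core genes. The log2 ratio of ctrl replicate 1 to ctrl replicate 2 had a median of 0.43 over the genes, larger in size than that between the genotypes.

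**Figure D2:**
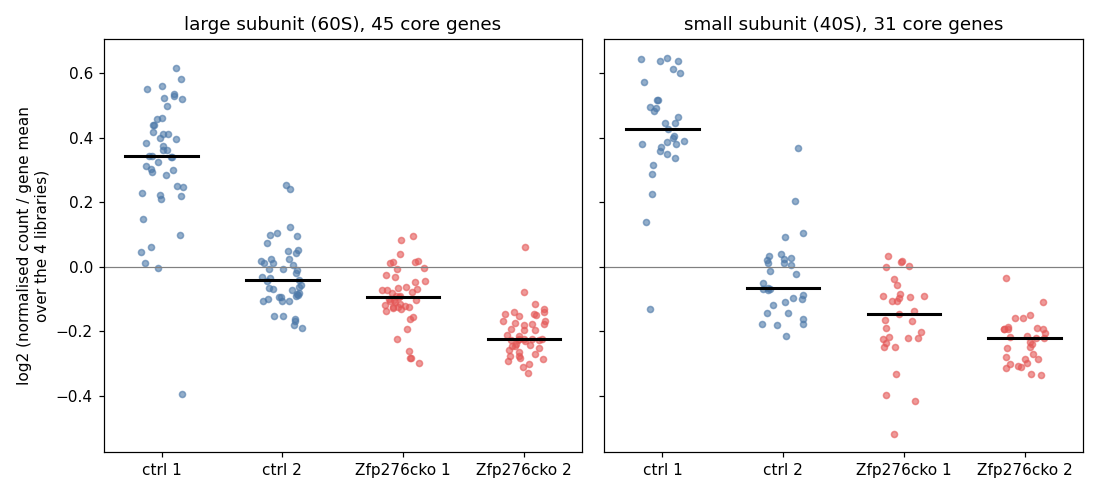
Normalised counts of core genes in each library as log2 of the ratio to the gene's mean over the 4 libraries (vertical axis), 1 point a gene and a bar at the median, for the 60S genes (left) and 40S genes (right). The medians in ctrl 1 are 0.34 and 0.43, those in ctrl 2 are −0.04 and −0.07, and those in the Zfp276cko libraries lie between −0.09 and −0.22.

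Rps2, a protein of the 40S subunit near the mRNA entry channel, had the lowest log2 fold change of the core genes and the same value with either ctrl library left out. It lies on chromosome 17 from 24718116 to 24721929 on the plus strand, with 5 exons. Its normalised counts were 10391 and 10519 in ctrl against 6111 and 6613 in Zfp276cko, so the genotypes did not overlap and the spread within each was small. The log2 fold change was −0.72 (SE 0.10, edgeR adjusted p = 0.123), and DESeq2 gave an adjusted p of 2.31e-05. The log2 fold change was −0.72 with ctrl replicate 1 left out and −0.72 with ctrl replicate 2 left out; for 5 of 76 core genes these values lay within 0.1 of each other. A snoRNA gene, Snora64, shares 134 bases of its exons on the same strand and was listed at 0 in all libraries. The entry Rps2-ps10 had 416 and 444 counts in ctrl against 442 and 505 in Zfp276cko.

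**Figure D3:**
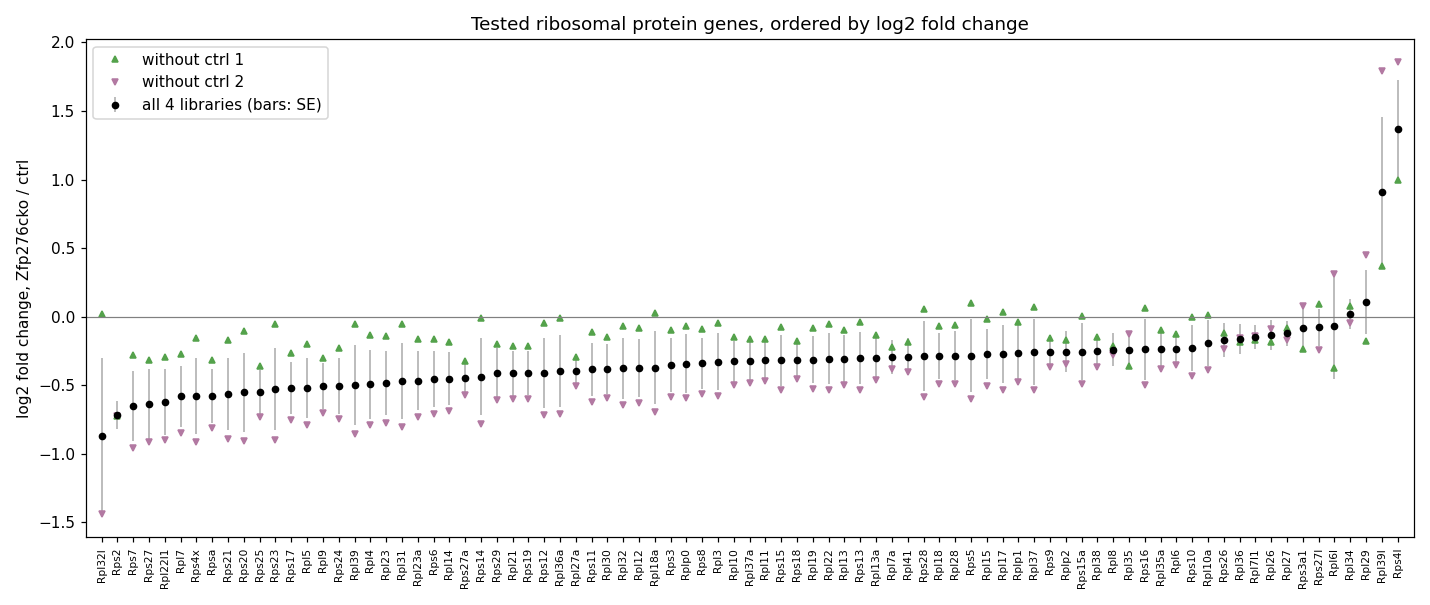
The log2 fold change, Zfp276cko over ctrl (vertical axis), of each of the 83 tested ribosomal protein genes, ordered by its value, with the SE as bars and with the values without ctrl 1 and without ctrl 2 as triangles. For Rps2 the 3 values coincide at −0.72, while for most genes the value without ctrl 1 lies closer to 0 than that without ctrl 2.

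Among the other 40S genes, Rps7 and Rps27 had the next lowest values of the core genes. Rps7 had 8977 and 5673 normalised counts in ctrl against 4377 and 4941 in Zfp276cko, a log2 fold change of −0.65 (SE 0.25, edgeR adjusted p = 0.339), and Rps27 had 5965 and 3993 in ctrl against 2745 and 3645 in Zfp276cko (−0.64, SE 0.26). With ctrl replicate 1 left out the values were −0.28 and −0.32. Rps25, which is needed for initiation at some viral internal entry sites, had 7343 and 5748 in ctrl against 4278 and 4669 in Zfp276cko (−0.55, SE 0.16), and its value was −0.36 with ctrl replicate 1 left out. Rps27a, made as a fusion with ubiquitin, had 8898 and 7579 in ctrl against 6052 and 6048 in Zfp276cko (−0.45, SE 0.12), and its genotypes did not overlap. Rps6, the substrate of S6 kinase, had 7193 and 4967 in ctrl against 4365 and 4501 in Zfp276cko (−0.46, SE 0.20), which came to −0.16 with ctrl replicate 1 left out. Rpsa, also known as a laminin receptor, had 19708 and 14150 in ctrl against 11777 and 10921 in Zfp276cko (−0.58, SE 0.20, edgeR unadjusted p = 0.0409), which came to −0.32 with ctrl replicate 1 left out.

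In the 60S subunit, Rpl27a had the smallest unadjusted p (0.0298, edgeR), with 5242 and 4579 normalised counts in ctrl against 3933 and 3531 in Zfp276cko. Of the stalk genes, Rplp0 had 25918 and 18203 in ctrl against 18514 and 16240 in Zfp276cko, so the genotypes overlapped. Rplp1 overlapped too, with 15435 and 11497 in ctrl against 12493 and 9863 in Zfp276cko. Rplp2 did not, with 8550 and 7641 in ctrl against 7464 and 6100 in Zfp276cko. Their log2 fold changes lay between −0.34 and −0.26, and no stalk gene reached an unadjusted p of 0.05. With ctrl replicate 1 left out the values were −0.07 for Rplp0, −0.04 for Rplp1 and −0.17 for Rplp2. Rpl8, used with Gapdh as a reference gene for qRT-PCR in the study, had 12857 and 12403 in ctrl against 11353 and 10008 in Zfp276cko (−0.24, SE 0.12, edgeR adjusted p = 0.426), while Gapdh had 9394 and 9929 in ctrl against 12552 and 11295 in Zfp276cko (0.30, SE 0.12, adjusted p = 0.335). Rpl29 and Rpl34 were the only ones of the 76 tested core genes with a log2 fold change above 0 (0.11 and 0.02), and Rpl29 had 1213 and 1900 in ctrl against 1688 and 1664 in Zfp276cko. Leaving out ctrl replicate 1 turned Rpl29 to −0.18, and leaving out ctrl replicate 2 turned Rpl34 to −0.05.

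Per kilobase of transcript, the highest levels of normalised counts in ctrl belonged to Rplp1 (26986), Rps29 (24643), Rpl32 (20650), Rps15 (19783) and Rps12 (19432), and each was lower in Zfp276cko (22401, 18502, 15907, 15875 and 14611). The lowest of the core genes was Rpl24, with 3, 5, 8 and 14 counts in ctrl 1, ctrl 2, Zfp276cko 1 and Zfp276cko 2. It shares 484 of 1030 exon bases with Gm28037 on the same strand, and Gm28037 was listed at 0 in all libraries. The next lowest, Rpl13a, had 1056 normalised counts per kilobase in ctrl. Rpl13a shares 621 of 2114 exon bases with Gm45713 on the same strand, and Gm45713 was listed at 0 in all libraries.

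Of the 7 tested paralogs and pseudogenes, 5 had a log2 fold change below 0 and 2, Rps4l and Rpl39l, one above 0. Rps4l, annotated as a transcribed processed pseudogene of Rps4x (chromosome 6, 148354656 to 148355598, plus strand, 1 exon), had 64.1 and 118 normalised counts in ctrl against 248 and 223 in Zfp276cko, and the genotypes did not overlap. Its log2 fold change was 1.37 (SE 0.36, edgeR adjusted p = 0.219, DESeq2 adjusted p = 0.0255), and it was 1.00 with ctrl replicate 1 left out and 1.86 with ctrl replicate 2 left out. Rps4x itself had 21148 and 12579 in ctrl against 11650 and 10949 in Zfp276cko (−0.58, SE 0.28), and its value was −0.15 with ctrl replicate 1 left out. Rps4l is 79.8% identical to the coding sequence of Rps4x and shares with it no run of 101 bases, the read length. The stretch below, coding bases 475 to 534 of Rps4x, is not typical: no stretch of its length without gaps holds more substitutions. It holds 20 of their 157 substitutions, marked by capitals.
Rps4x: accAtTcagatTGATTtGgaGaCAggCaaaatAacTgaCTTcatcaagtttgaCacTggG
Rps4l: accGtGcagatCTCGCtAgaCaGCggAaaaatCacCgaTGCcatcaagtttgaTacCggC

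Rpl39l, a paralog of Rpl39 best known from testis, had 9.50 and 25.9 normalised counts in ctrl against 34.4 and 32.7 in Zfp276cko (0.91, SE 0.54, edgeR adjusted p = 0.489; 0.37 with ctrl replicate 1 left out), and Rpl39 had 5528 and 3206 in ctrl against 3277 and 2902 in Zfp276cko (−0.50, and −0.05 with ctrl replicate 1 left out). Rpl22l1 had 2083 and 1381 in ctrl against 1014 and 1233 in Zfp276cko (−0.62, SE 0.24, and −0.30 with ctrl replicate 1 left out), beside 8046 and 5838 in ctrl against 5725 and 5493 in Zfp276cko for Rpl22 (−0.31 and −0.06). Rps27l and Rpl7l1 had log2 fold changes of −0.08 and −0.15. Rpl32l, a pseudogene, had 52.2 in ctrl replicate 1 and 18.9 to 19.9 in the other 3 libraries. Rpl10l was at 0 in all libraries, and Rpl3l and Rps12l1 had at most 3 counts in any library, so no fold change is given for these 3.

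Rps3a3, a processed pseudogene of Rps3a1 on chromosome 13 (108670603 to 108671397), had 2106 counts in ctrl replicate 1 and 5, 6 and 1 in ctrl replicate 2, Zfp276cko replicate 1 and Zfp276cko replicate 2. Rps3a1 had 6915 and 8705 normalised counts in ctrl against 7362 and 7388 in Zfp276cko, so that ctrl replicate 1 was the lowest for it. Rps3a3 held 26.6% of the counts of the pair in ctrl replicate 1 and at most 0.0737% in the others, and the sum of the pair was 9415, 8711, 7367 and 7389 normalised counts in the order above. With the counts of the copies added, Rps3a1 had a log2 fold change of −0.30 (SE 0.10, edgeR adjusted p = 0.304), against −0.08 without. The coding sequences differ by 9 substitutions in 795 bases. The pair is shown over 101 bases (coding bases 160 to 260), the length of 1 read, with the 2 differing bases in capitals. No stretch of this length holds more differences. Of 695 stretches of this length in the Rps3a1 coding sequence, 124 (17.8%) occur unchanged in Rps3a3.
Rps3a1: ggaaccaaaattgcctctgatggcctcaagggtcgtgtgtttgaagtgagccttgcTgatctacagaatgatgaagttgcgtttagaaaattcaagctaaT
Rps3a3: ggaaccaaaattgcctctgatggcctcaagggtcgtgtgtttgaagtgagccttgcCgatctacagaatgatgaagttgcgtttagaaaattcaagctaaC
The same library was also the high one for 3 of the 5 -ps entries with at least 100 counts in any library: Rps26-ps1 had 272 counts there and 8 to 13 in the others, Rpl15-ps2 had 205 and 0 to 1, and Rps15a-ps8 had 132 and 0.

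**Figure D4:**
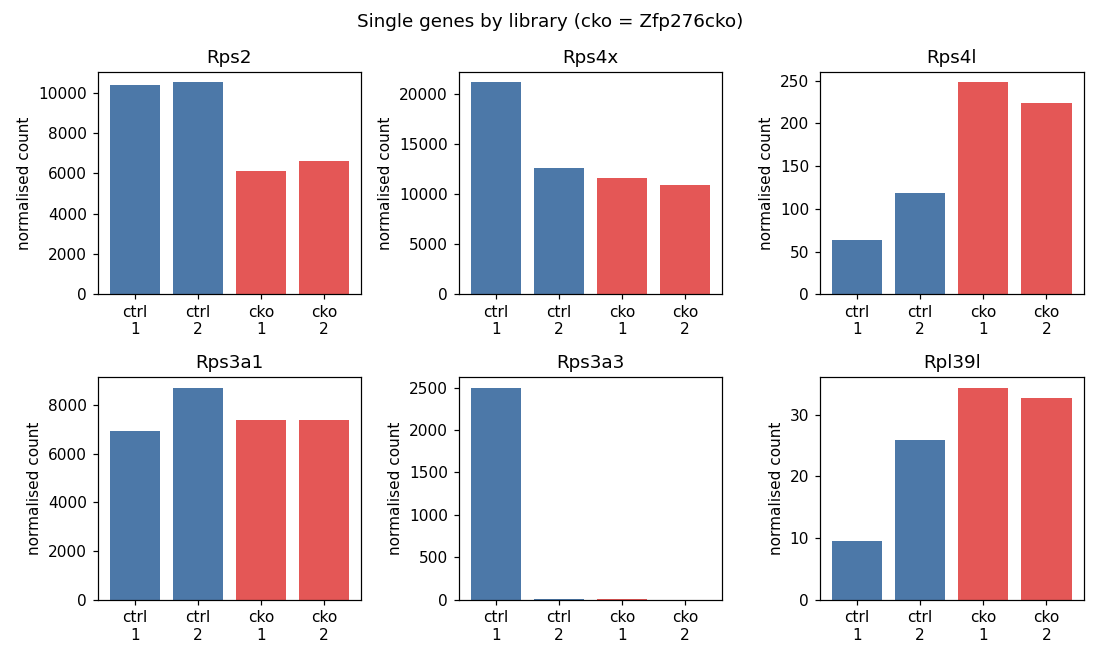
Normalised counts (vertical axes, each panel on its own scale from 0) of 6 genes in the 4 libraries, ctrl in blue and Zfp276cko in red. Rps2 is lower and Rps4l higher in both Zfp276cko libraries, and Rps3a3 is high in ctrl 1 alone.

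Genes around the ribosome were read in the same edgeR fit, where 7.3% of all genes tested were lower and 8.33% higher at an unadjusted p of at most 0.05. Genes named below as lowest, least low or highest of a list are the extremes among its genes that passed this p. Of 77 tested mitochondrial ribosomal protein genes, 6 were lower (7.79%, near the background) and 0 higher by that measure, with a median of −0.08; Mrps7 was the lowest of these (−0.83, SE 0.13, edgeR adjusted p = 0.132) and Mrpl3 the least low (−0.25). Of 61 ribosome assembly factors, 9 were lower (14.8%) and 0 higher (median −0.12), from Imp3 (−0.41) to Ddx21 (−0.26). Of 49 translation factors, 3 were lower (6.12%) and 2 higher (4.08%; median −0.18), with Eif2b5 the lowest (−0.40) and Eif1a the highest (0.50). Of 18 genes of the RNA polymerase I machinery, Polr1d was lower (−0.49) and Myc, which drives ribosome production, was higher: it had 2661 and 2799 normalised counts in ctrl against 4760 and 4949 in Zfp276cko (0.83, SE 0.09, edgeR adjusted p = 0.110), and 0.80 and 0.85 with either ctrl library left out. Of 29 genes of mTOR signalling and ribosomal protein mRNA control, 3 were lower (10.3%; Larp1b lowest at −0.79, Sesn3 least low at −0.34). Of 13 eIF2alpha kinases and ribosome rescue factors, 2 were lower (15.4%; Eif2ak3 lowest at −0.39) and 3 higher (23.1%), with Eif2ak2, the kinase activated by double-stranded RNA, at 1903 and 734 in ctrl against 4822 and 5223 in Zfp276cko (1.93, SE 0.49, edgeR adjusted p = 0.208). Of 15 snoRNA host genes, 2 were higher (13.3%, Zfas1 at 0.45 and Snhg1 at 0.30). Both Zfp276cko libraries were below both ctrl libraries in 57.4% of the assembly factors, against 23.7% of all genes tested. This share was 46.9% for the translation factors, 45.5% for the mitochondrial ribosomal protein genes and 41.4% for the mTOR list. It was 30.8% for the kinases and rescue factors, 27.8% for the RNA polymerase I machinery and 6.67% for the snoRNA host genes. None of these genes was called with edgeR; DESeq2 called Mrps7 lower and Myc and Eif2ak2 higher. Among ribosomal proteins outside the symbol rule, Fau had 4513 and 3143 in ctrl against 3432 and 3303 in Zfp276cko and Rack1 21029 and 13743 against 16185 and 14198, and both overlapped between the genotypes.

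**Figure D5:**
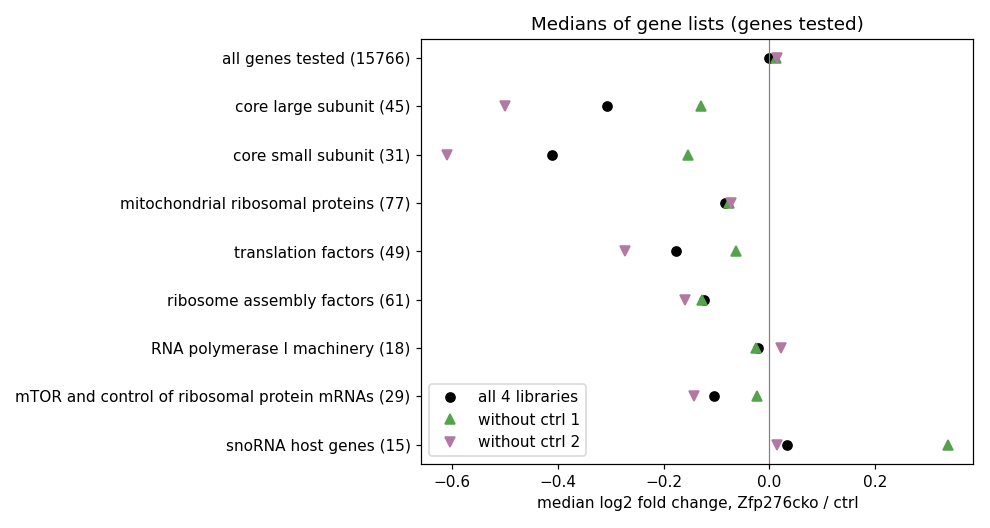
Median log2 fold change, Zfp276cko over ctrl (horizontal axis), of each gene list with the number of tested genes in brackets, from all 4 libraries and without either ctrl library. The core genes move from −0.13 and −0.15 without ctrl 1 to −0.50 and −0.61 without ctrl 2, while the mitochondrial ribosomal proteins stay between −0.07 and −0.08.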

How the data were processed

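Counts per gene were deposited by the authors, 1 table a library, unnormalised. Per the labels, polyadenylated RNA was sequenced as single-end reads of 101 bases; STAR 2.5.4a and featureCounts 1.5.1 are named in the submitters' processing notes for mm10, while the paper's methods name HTSeq, and the strand setting is not given in the sources used here. Reads of near-identical copies may be split between them. Genes passing filterByExpr were tested with edgeR 4.0.16 (quasi-likelihood, TMM normalisation, genotype alone, R 4.3.3), with Benjamini-Hochberg adjustment over 15766 genes; thresholds were an adjusted p of 0.05, an absolute log2 fold change of 0.6 and a mean normalised count of 20. DESeq2 1.42.0, other scalings and filters, a GC content and length correction (loess span 0.5) and single-library removal were the alternatives. The scripts were tested on simulated counts. Nothing states that the 2 libraries of a genotype come from separate litters, so p-values measure the spread between these libraries. Values per library are normalised counts unless named as counts, CPM or percent of counted reads. The SDs are of the percent shares. Intervals of shares are Wilson 95% intervals and cover counting error only. Named genes were Rpl8, the stalk genes, Rpsa, Rps6, Rps27a, Fau, paralogs with their parents, the extremes of fold change, p and level per kilobase, and genes at or under 3 counts; in the lists, the extremes among genes with an unadjusted p of at most 0.05. Members and lists were chosen with earlier results of these data known. A further gene of the rule is not reported here.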

Additional observations from a re-analysis of the deposited data

How the results depend on the processing

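All alternatives kept the median of the ribosomal protein genes below 0, from −0.44 with the GC content and length correction to −0.22 with library totals; library totals moved the median of all genes to 0.10 and the GC content and length correction moved it to −0.11. Leaving out 1 library in turn gave medians of −0.54 to −0.13 and differences in the share of reads of −0.753 to −0.137 percentage points. It gave 0 to 35 called genes, 0 to 74 lower and 0 to 3 higher genes at an unadjusted p of at most 0.05, and 55 to 78 genes below and 3 to 7 above without overlap. With fewer libraries these shares rise or fall for all genes too: without ctrl replicate 1, 16% of all genes were called (2.35% of the ribosomal protein genes), 22% were lower at an unadjusted p of at most 0.05 (37.6%) and 42.2% lay below (69.4%); without ctrl replicate 2 these were 18.6% (40.7%), 25.2% (86%) and 42.9% (90.7%); with 1 Zfp276cko library left out they were 0% (0%), 1.22% to 1.23% (0% to 1.18%) and 29.5% to 29.7% (64.7% to 89.5%). With 1 ctrl library left, that library is assumed to vary like the Zfp276cko pair, which was the tighter one. Lower genes at an unadjusted p of at most 0.05 numbered 12 with no filter and 19 with DESeq2, against 7. They numbered 33 with the GC content and length correction and 26 with that correction and the replicate block together. No share of all genes is given for these settings, so these counts are not a result about the ribosomal protein genes. DESeq2 called 3 genes against 0, where 2.27% of all genes were called lower and 3.02% higher. A minimum of 10 counts in every library left 1 gene above both ctrl libraries against 2. The cause was not tested. The labels do not say whether the replicate numbers pair the libraries. The deviations of replicate 1 correlated at −0.00426 between the genotypes, which cannot settle it because ctrl replicate 1 stood apart. The replicate block gave a median of −0.31, 8 lower genes (share of all genes not given here) and 54 below both ctrl libraries.

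Sign changes were found in 6 of 28 genes followed. With single libraries left out, the log2 fold change ranged from −0.247 to 0.0942 for Rps27l, from −1.44 to 0.0206 for Rpl32l, from −0.238 to 0.0792 for Rps3a1, from −0.371 to 0.311 for Rpl6l, from −0.179 to 0.452 for Rpl29 and from −0.0642 to 0.108 for Rpl34. Library totals gave 0.025 for Rps27l, 0.0108 for Rps3a1 and 0.0196 for Rpl6l. Gapdh and Rpl8 scaling gave −0.0105 for Rpl34. The GC content and length correction gave −0.00896 for Rpl29 and −0.0805 for Rpl34, and with the replicate block −0.0792 for Rpl34. Adding the Rps3a copies to Rps3a1 and taking the core genes alone, both chosen after seeing the data, gave medians of −0.33. Depth limits the genes at or under 3 counts.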
